A study of Mus musculus with 6 samples.

Results

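Hcn2, Hcn3 and Hcn4 encode subunits of the hyperpolarization-activated, cyclic nucleotide-gated (HCN) pacemaker channels. The 3 genes were chosen by family membership, and each matched 1 of the 41388 Ensembl gene identifiers in the count files. They were measured in RNA of EGFP-positive cells sorted from mouse dorsal root ganglia, the clusters of sensory neurons beside the spinal cord, at 18.5 dpc (days post coitum). All 6 libraries came from C57BL/6 embryos labelled Tg(Ret-EGFP)SJ, and the series text describes EGFP knocked into the Ret locus of C57BL/6J heterozygotes. In both accounts EGFP stands under control of Ret, the receptor gene for GDNF family ligands, so the sort selects Ret-expressing cells of every class together. The libraries comprised 3 of males (A, C and D) and 3 of females (A, B and C), and the labels list no treatment and no other genotype. Pools of 3 embryos made up male A and female A, and pools of 2 made up male C and male D. A single embryo (1) supplied each of female B and female C. Female B and female C have records in a later form and are called record set 2, and the other 4 libraries are record set 1. Every library is a bulk pool, so fewer cells of a type and less RNA per cell cannot be told apart in any value below.

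HCN channels open when the membrane becomes more negative and pass a mixed inward current of sodium and potassium, known as Ih, that brings the cell back towards firing threshold. Subunits assemble as tetramers, and a domain in the cytoplasmic tail binds cyclic AMP, which makes opening easier in channels of HCN2 and HCN4, whereas HCN3 responds little. HCN2 in adult nociceptors is known for its part in repetitive firing during inflammatory and neuropathic pain, HCN4 for the heartbeat pacemaker of the sinoatrial node, and HCN3 is the least studied of these 3 subunits.

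In the reference annotation Hcn2 (ENSMUSG00000020331) lies on GRCm38 chromosome 10 at 79716634 to 79736108 on the plus strand. Hcn3 (ENSMUSG00000028051) lies on chromosome 3 at 89146074 to 89160196 on the minus strand. Hcn4 (ENSMUSG00000032338) lies on chromosome 9 at 58823512 to 58860955 on the plus strand, by the coordinates of the files. Each gene was counted over 8 exon blocks, with a summed length of 3195 bases for Hcn2, 4154 bases for Hcn3 and 3798 bases for Hcn4. The pore is a part of the coding sequence that the 3 genes have in common. It is shown here because reads from so similar a stretch must still be told apart by aligned sequence. The 93 coding bases around the selectivity filter of each gene, from GENCODE M21 transcripts, lie within 1 exon at chr10:79728917-79729009 (Hcn2, plus strand), chr3:89150964-89151056 (Hcn3, minus strand) and chr9:58855549-58855641 (Hcn4, plus strand). Capitals mark the codons of the glycine-tyrosine-glycine filter, the signature of potassium-conducting pores:
Hcn2: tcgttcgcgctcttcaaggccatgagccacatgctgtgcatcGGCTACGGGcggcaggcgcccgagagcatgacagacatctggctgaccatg
Hcn3: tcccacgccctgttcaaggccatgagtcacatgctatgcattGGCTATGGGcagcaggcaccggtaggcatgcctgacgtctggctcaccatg
Hcn4: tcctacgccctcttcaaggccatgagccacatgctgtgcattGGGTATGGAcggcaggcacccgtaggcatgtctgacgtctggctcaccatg

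Over these 93 bases Hcn3 and Hcn4 were identical at 84 positions, Hcn2 and Hcn4 at 78 and Hcn2 and Hcn3 at 74. Across the aligned coding sequences identity was 78.5% for Hcn3 and Hcn4, 80.0% for Hcn2 and Hcn4 and 76.1% for Hcn2 and Hcn3. The longest run of identical bases shared by a pair of transcripts was 33 bases for Hcn2 and Hcn3 and 32 bases for each of the other pairs. No stretch of at least 150 bases at 95% identity or more was found in the transcripts of another gene for Hcn2 or Hcn4. Hcn3 had such matches only in Pklr, a pyruvate kinase gene on the opposite strand whose exons overlap the 3′ end of Hcn3. The overlap covers 711 bases, 17.1% of the counted length of Hcn3. Pklr itself held 1 to 3 counts per library, the labels state neither a strand nor an overlap setting, and whether reads of the overlap entered the counts of Hcn3 was not tested. For Hcn4 the counted exons stop 2220 bases before the 3′ end that GENCODE M21 gives the gene. Reads from that stretch are outside the counts, and their number was not measured.

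The libraries held 17861500 to 29330101 counts, and the upper limit behind a count of 0, taken as 3 counts, corresponds to 0.102 to 0.168 CPM (counts scaled to a common library total). Markers of the sorted cells were high, with Ret at 147.5 to 210.3 CPM and pan-sensory genes, led by Stmn2 and Tubb3, at a summed 11680 to 16502 CPM. Male A stood apart: satellite glia and Schwann cell genes, led by Fabp7 and Apoe, summed to 2403 CPM there and to 1018 to 1155 CPM in the other 5 libraries. Fibroblast genes, led by Col1a2 and Col3a1, summed to 2580 CPM in male A and to 278 to 352 CPM elsewhere. The library labelled male C held 58.9 CPM of Xist, against 0.418 and 0.575 CPM in the other males and 111.4 to 197.1 CPM in females, while its Y-linked Kdm5d stood at 9.71 CPM. Hcn2, Hcn3 and Hcn4 were all detected in both of these libraries.

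Hcn3 was the most abundant of the 3 genes in every library. Males A, C and D gave 339, 636 and 307 counts of it, and the females gave 390 (A), 371 (B) and 694 (C). On the CPM scale with TMM factors, which adjust for library composition, this gave 17.7, 20.1 and 14.7 CPM for the males in that order and 17.8, 20.5 and 34.7 CPM for the females. Female C was highest and male D lowest, and the other 4 libraries lay between 17.7 and 20.5 CPM. The mean was 20.9 ± 7.07 CPM (SD, n = 6), and 18.2 ± 2.33 CPM over the 5 libraries without female C, which stood 1.91 times above that mean. Male A, with the high glial and fibroblast levels, was not apart in Hcn3. Per kilobase of counted length the mean was 5.04 ± 1.70 RPKM (SD, n = 6), above 73.8% of the 25811 genes with any count.

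Hcn4, the sinoatrial subunit, was present at a low level. Males A, C and D had 17, 17 and 22 counts, and the female libraries had 22 (A), 19 (B) and 17 (C). These correspond to 0.888, 0.538 and 1.05 CPM for the males and to 1.00, 1.05 and 0.851 CPM for the females. Male C was lowest and the other 5 libraries lay close together, and the 95% Poisson intervals of all 6 libraries overlapped, from 0.313 to 0.861 CPM in male C to 0.661 to 1.60 CPM in male D. The mean was 0.898 ± 0.195 CPM and 0.236 ± 0.0515 RPKM (SD, n = 6).

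Hcn2, the subunit known from nociceptor firing, was close to the detection limit. Its 37 counts were spread as 5, 13 and 4 over males A, C and D, with 7 (A), 5 (B) and 3 (C) for the females. The levels were 0.261, 0.411 and 0.192 CPM for the males and 0.319, 0.277 and 0.150 CPM for the females. Female C was at the limit of 3 counts, and the interval of every library overlapped that of every other, as in the plot of levels by library. The mean was 0.268 ± 0.0928 CPM and 0.0840 ± 0.0290 RPKM (SD, n = 6). These intervals cover counting error only, since reads were amplified and carry no molecular identifiers.

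**Figure D1:**
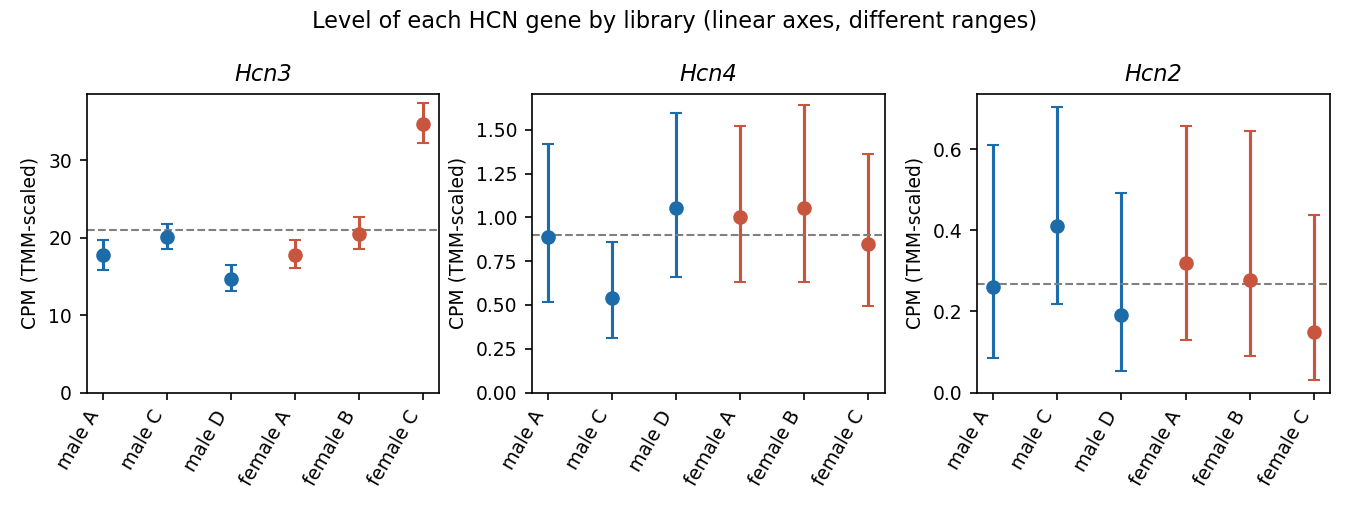
Level of Hcn3, Hcn4 and Hcn2 in each library, as CPM with TMM factors on linear axes that start at 0 and differ in range; points are single libraries (blue male, red female), bars are 95% exact Poisson intervals of the count and the dashed line is the mean of 6. Hcn3 in female C, at 34.7 CPM, lies above the other 5 libraries at 14.7 to 20.5 CPM, whereas the bars of Hcn4 and of Hcn2 overlap across libraries.

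The spread between libraries differed among the genes. Hcn3 had a coefficient of variation of 33.8% over the 6 libraries, where counting error alone gives 4.76%, and 12.8% over the 5 libraries without female C. For Hcn4 the coefficient of variation was 21.8% beside a counting error of 23.3%, and for Hcn2 it was 34.6% beside 40.9%. The differences of Hcn2 and Hcn4 between libraries were thus no larger than their low counts give, and biological variation in them was not detectable at this depth. As a background for Hcn3, the 4298 tested genes within a factor of 2 of its mean CPM had a median coefficient of variation of 21.8%. No such background is given for Hcn2 and Hcn4, since their levels lie near the filter on low counts.

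Compared per length within each library, the order of the levels was Hcn3, then Hcn4, then Hcn2. The ratio of Hcn3 to Hcn4 was 18.2, 34.2 and 12.8 for males A, C and D, and the females had ratios of 16.2 (A), 17.9 (B) and 37.3 (C). Over the summed counts of the 6 libraries it was 22.0 (95% exact interval 18.2 to 26.7, counting error only). On the log2(RPKM + 0.01) scale Hcn3 exceeded Hcn4 by 4.33 ± 0.61 (SD, n = 6), in 6 of 6 libraries (exact paired permutation test, two-sided, p = 0.03125, adjusted p = 0.03125 over 3 pairs, the smallest value 6 libraries allow). Hcn3 exceeded Hcn2 by 5.75 ± 0.74 on the same scale, with the same exact p = 0.03125, and the ratio over summed counts was 56.9 (41.2 to 81.0).

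The difference between the neighbours Hcn4 and Hcn2 was smaller. Hcn4 was the higher in 6 of 6 libraries, by 1.42 ± 0.70 on the log2(RPKM + 0.01) scale (SD, n = 6, exact paired permutation p = 0.03125, adjusted p = 0.03125). Over summed counts the ratio was 2.59 (95% exact interval 1.77 to 3.86). In male C it was 1.10 with an interval of 0.503 to 2.46, so that there the order was not resolved. With the length of the longest annotated transcript, which is 6118 bases for Hcn4 in GENCODE M21, the difference was 0.77 and no longer past the threshold (exact adjusted p = 0.0625), although reads of the added stretch are not in the counts.

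As shares of the summed level per length of the 3 genes, Hcn3 made up 93.5 ± 1.98%, Hcn4 4.76 ± 1.77% and Hcn2 1.70 ± 0.670% (SD, n = 6). These shares are among Hcn2, Hcn3 and Hcn4 and are not shares of all HCN transcripts. The share of Hcn3 was 93.1%, 94.7% and 91.3% for males A, C and D, and the females had 92.2% (A), 93.2% (B) and 96.9% (C). The share of Hcn4 was lowest in female C (2.60%) and male C (2.77%), and 5.11% to 7.16% in the other 4. Female C had the highest level of Hcn3 (34.7 CPM) and male C the lowest of Hcn4 (0.538 CPM). The share of Hcn2 ran from 0.544% in female C to 2.52% in male C, where Hcn2 and Hcn4 nearly met. With the longest transcript length the mean share of Hcn4 was 2.91%, and with the 711 bases shared with Pklr taken off the length of Hcn3, a choice made after the data were seen, Hcn3 made up 94.6% and Hcn4 3.99%.

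**Figure D2:**
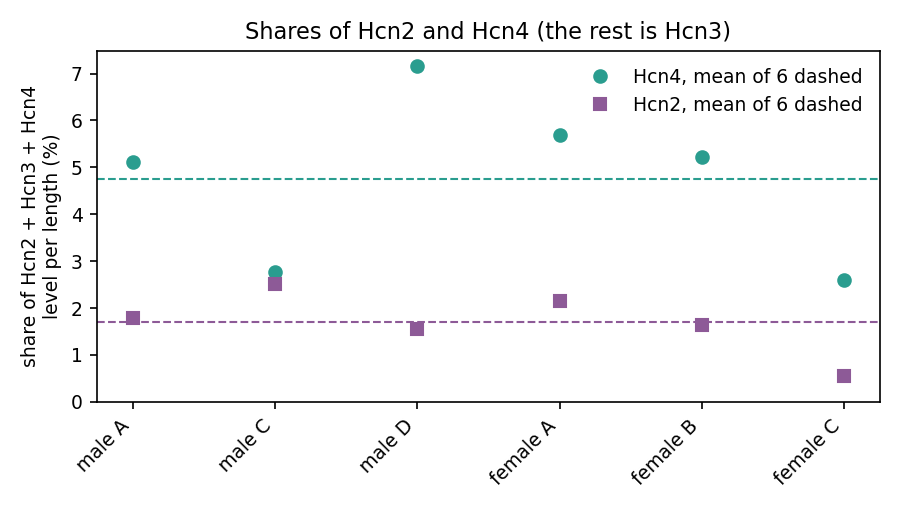
Share of Hcn4 (circles) and Hcn2 (squares) in the summed per-length level of Hcn2, Hcn3 and Hcn4, in percent on an axis from 0, in each library, with the mean of 6 dashed. Hcn4 lies above Hcn2 in each library, from 2.77% against 2.52% in male C to 7.16% against 1.55% in male D.

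Sex was the only contrast the labels give, and none of the 3 genes was shown to differ by it. The edgeR quasi-likelihood test was fitted to all 14958 genes that passed the filter on low counts, among them Hcn3 and Hcn4 but not Hcn2. It called 4 genes, 0.0267% of those tested, at a Benjamini-Hochberg adjusted p under 0.05, and neither member was among them. All 4 were lower in females and 0 were higher. Xist was thus not called, at 111.4 to 197.1 CPM in females and 58.9 CPM in male C. Without male C, 5 genes were called, 1 of them higher in females. A gene not called by this fit may therefore still differ by sex. A further background is that in 8.06% of tested genes the sexes did not overlap, with 3 libraries all above the other 3, which held for 0 of Hcn2, Hcn3 and Hcn4.

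The female mean of Hcn3 was 24.4 ± 9.09 CPM and the male mean 17.5 ± 2.71 CPM (SD, n = 3 each). The ranges overlapped, with females at 17.8 to 34.7 CPM and males at 14.7 to 20.1 CPM. The log2 change, female minus male, was 0.47 with a standard error of 0.29, a 95% interval of -0.18 to 1.13 and an edgeR adjusted p = 0.961 (unadjusted 0.136). The value followed 1 library: without female C it was 0.13. Within record set 1, the 3 male libraries and female A, it was 0.02, and with record set as a term over 6 libraries also 0.02. Record set 2 holds females only, so that it gives no value of its own, and sex, record set and the 1-embryo pools cannot be told apart in female B and female C. Without male A the change was 0.48 and without male C it was 0.59.

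The female mean of Hcn4 was 0.969 ± 0.105 CPM and the male mean 0.827 ± 0.264 CPM (SD, n = 3 each), with overlapping ranges. Its log2 change was 0.24 with a standard error of 0.46, a 95% interval of -0.80 to 1.28 and an edgeR adjusted p = 0.992. Without male C it was -0.0053, without male A it was 0.30, and within record set 1 it was 0.29. Hcn2 had 15 counts in females and 22 in males, at 0.249 ± 0.0880 and 0.288 ± 0.112 CPM (SD, n = 3 each). The log2 ratio of these means was -0.21, and it turned to 0.05 without female C and to 0.14 without male C. Tested without a low-count filter the log2 change of Hcn2 was -0.24, with a 95% interval of -2.002 to 1.53 and an edgeR adjusted p = 0.99. The interval of Hcn2 spans changes of more than 2-fold in either direction, and that of Hcn4 spans such a change on the female side only. The share of Hcn2 among the 3 genes was 1.44 ± 0.820% in females and 1.95 ± 0.506% in males (exact permutation test, two-sided, p = 0.5, where 3 against 3 cannot go below 0.1). The difference of -0.51 percentage points was -0.06 without female C and -0.22 without male C. The exact permutation p was 0.6 for the share of Hcn3 and 0.8 for that of Hcn4, and all 3 adjusted values were 0.8.

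**Figure D3:**
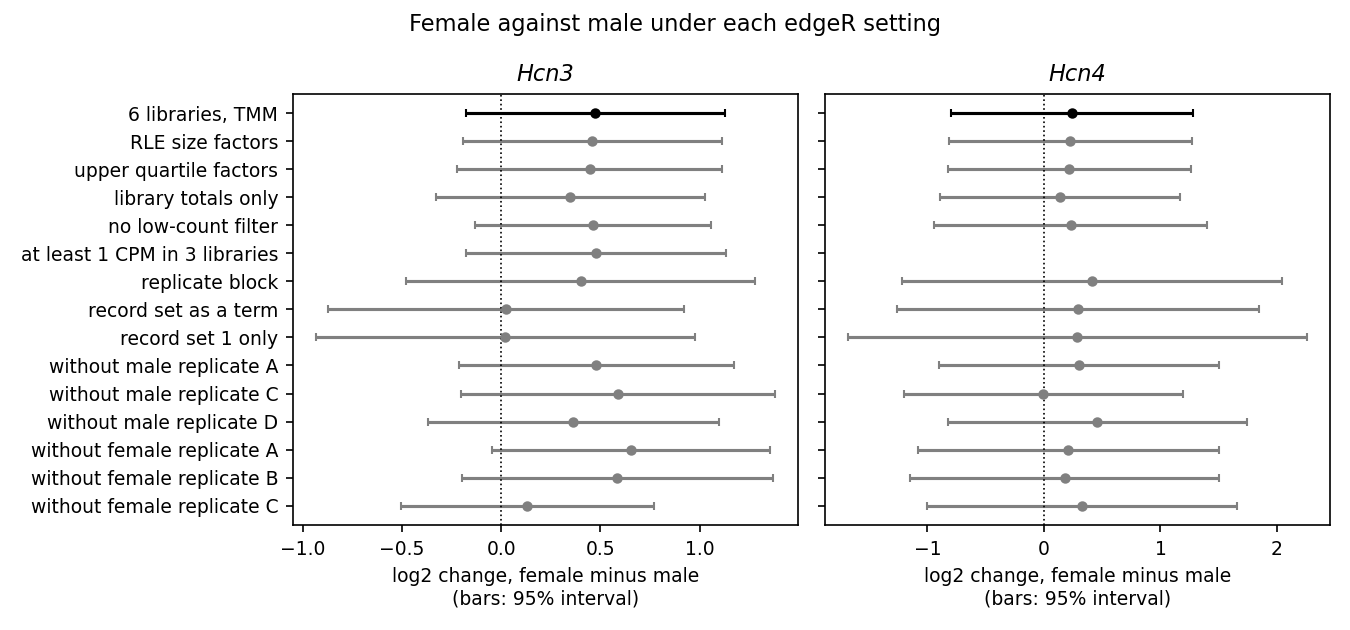
Log2 change of Hcn3 and Hcn4, female minus male, under each edgeR setting; points are fitted values and bars 95% intervals, black for the 6-library fit with TMM factors and grey for the alternatives, and Hcn4 has no point where the filter removes it. Every bar crosses 0, and Hcn3 lies nearest to 0 with record set as a term and in record set 1 only (0.02 each).

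HCN channels work with accessory proteins and with the enzymes that set cyclic AMP, and these are given beside the members from lists chosen by function. Of 12 accessory and trafficking genes found by symbol, 7 were tested and 0 called, 3 higher and 4 lower in females, with a median log2 change of -0.02 against -0.0036 over all tested genes. Pex5l, which encodes TRIP8b, the brain auxiliary subunit that controls HCN trafficking and cyclic AMP sensitivity, was named after its values were seen. It stood at 13.1, 12.5 and 13.9 CPM for males A, C and D, and the females had 15.01 (A), 21.4 (B) and 15.8 CPM (C). The sexes did not overlap in Pex5l, alone among the 7 tested genes of the list and as in 8.06% of all tested genes, and the log2 change of 0.40 had an edgeR adjusted p = 0.961. Per length Pex5l, at 2.90 ± 0.616 RPKM (SD, n = 6), was below Hcn3 and above Hcn4. Kcne2, which encodes an accessory subunit of several cation channels, had 11 counts in all, from male C and male D alone.

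By level per length the accessory list was led by Vapa and Apba2. Vapa, an endoplasmic reticulum tether gene, was at 172 ± 111 RPKM (SD, n = 6), with 75.7, 58.0 and 157 RPKM for males A, C and D and, for the females, 133 (A), 340 (B) and 270 RPKM (C). Its libraries of record set 2 were the highest, and its log2 change of 1.35 was not past the threshold (edgeR adjusted p = 0.961). Apba2, which encodes the adaptor Mint2, was at 19.4 ± 2.80 RPKM and between 16.6 and 23.1 RPKM in every library.

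The cyclic nucleotide-gated channels, the nearest relatives that open to cyclic nucleotide alone, were low, near the levels of Hcn4 and Hcn2. Of 6 genes, 2 had no count in any library and 1, Cngb1, was tested and not called. Cngb1, a modulatory subunit, was at 0.342 ± 0.0264 RPKM and Cnga2, the olfactory subunit, at 0.111 ± 0.0924 RPKM (SD, n = 6), with no Cnga2 count in male D.

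Cyclic AMP is made by adenylate cyclases and removed by phosphodiesterases. Of 10 cyclase genes, 8 were tested and 0 called, 5 higher and 3 lower in females, with a median log2 change of 0.02. Adcy5 had the highest level, 5.87 ± 0.681 RPKM, from 5.01 in male D to 6.58 in male C, close to that of Hcn3. Adcy2 followed at 2.59 ± 0.550 RPKM (SD, n = 6). The sexes did not overlap in Adcy2, alone among the 8 tested cyclase genes and as in 8.06% of all tested genes. Its values were lower in females (log2 change -0.41, edgeR adjusted p = 0.961). Of 15 phosphodiesterase genes found by symbol, 14 were tested and 0 called, 8 higher and 6 lower in females, with a median log2 change of 0.06. Pde1c, a calcium-activated enzyme, led with 10.1 ± 2.86 RPKM and was lowest in male A (5.03 RPKM). Pde4b, a cyclic AMP-specific enzyme, was at 6.46 ± 0.775 RPKM.

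Other proteins that bind cyclic AMP include the regulatory subunits of protein kinase A, whose genes were the 2 highest per length of the effector list. Prkar1a was at 285 ± 25.1 RPKM and Prkar1b at 96.1 ± 8.50 RPKM (SD, n = 6), with ranges of 258 to 327 RPKM and 84.8 to 106.8 RPKM over the libraries. The remaining regulatory subunit genes of the list were lower, each with a mean of 17.1 RPKM. Of 8 effector genes 7 were tested and 0 called, 6 higher and 1 lower in females, with a median log2 change of 0.11. By mean CPM without male A, 3 were higher and 4 lower. The exchange factor gene Rapgef3 was the member below the filter. DESeq2 and limma voom also called neither Hcn3 nor Hcn4, with unadjusted p of 0.155 and 0.702 in DESeq2 and 0.189 and 0.501 in limma voom.

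**Figure D4:**
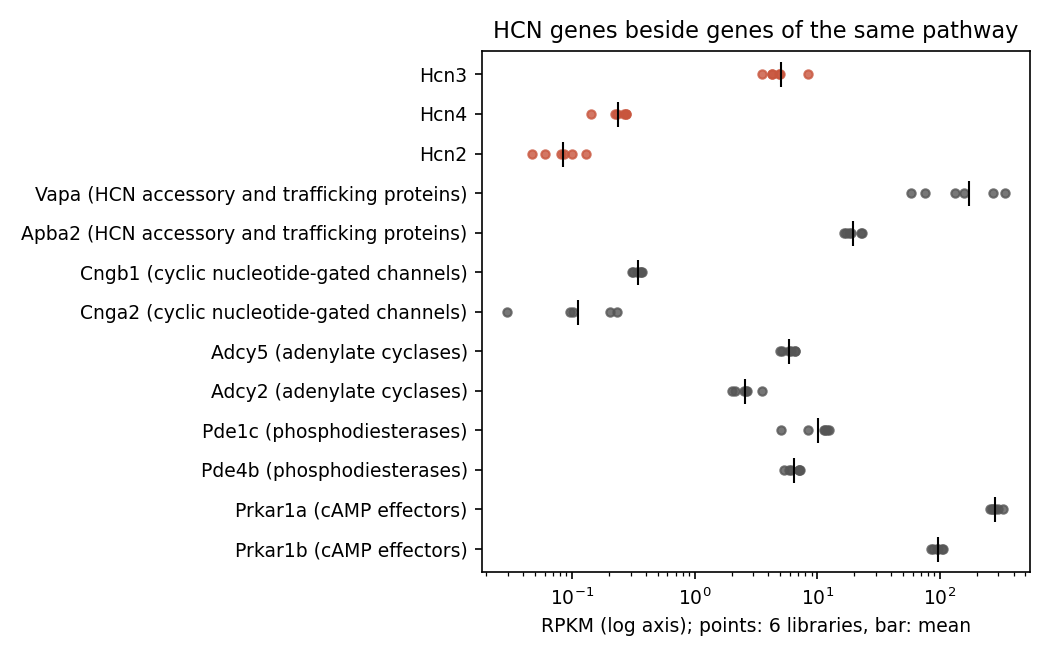
Level per length (RPKM, log axis) of Hcn3, Hcn4 and Hcn2 (red) and of the 2 genes with the highest mean RPKM of each pathway list (grey); points are the 6 libraries, the bar is their mean, and a library at 0 (Cnga2 in male D) is not drawn. Hcn3, at 3.54 to 8.36 RPKM, lies beside Adcy5 and Pde4b, whereas Hcn4 and Hcn2 lie beside the cyclic nucleotide-gated channel genes.

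The genes whose profile over the 6 libraries was most like that of Hcn3 were Gper1, Fblim1 and Cldn9. Likeness was the root mean square difference between log2 CPM profiles, each centred on its own mean, over 10473 genes with a mean of at least 5 CPM. It was 0.061 for Gper1, which encodes a membrane oestrogen receptor, 0.075 for Fblim1, which encodes a filamin-binding protein, and 0.12 for the claudin gene Cldn9, where the median gene had 0.48. Gper1 reached 67.7 CPM in female C, with a range of 31.9 to 44.2 CPM elsewhere. Fblim1 reached 82.1 CPM in female C, with a range of 33.8 to 49.9 CPM elsewhere. All 3 shared with Hcn3 the highest level in female C and the lowest in male D. A choice by likeness to Hcn3 favours such genes, so this is a description only. Hcn2 and Hcn4 had means under 1 CPM, and no profile was matched to them.

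Markers of sensory classes and of other cells were set beside the members in the libraries that stood apart. In female C, the library highest in Hcn3, no marker list had a sum above the range of the other 5 libraries. Single genes went both ways. Of those named as leading a list, Tubb3, P2rx3 and Fabp7 were highest in female C, and Apoe, Col3a1, Pecam1 and Lyz2 were lowest in it. Of the remaining pan-sensory genes, Isl1 (933 CPM) and Avil (1578 CPM) were also highest in female C, and Pou4f1 and Prph were not. The pan-sensory genes summed to 15825 CPM in female C (11680 to 16502 CPM elsewhere). There the large myelinated neuron genes, led by Etv1 and Nefh, summed to 320 CPM (219 to 415 CPM elsewhere) and the peptidergic nociceptor genes, led by Calca and Tac1, to 2455 CPM (2026 to 3090 CPM). The non-peptidergic genes, led by Scn11a and P2rx3, summed to 1213 CPM (937 to 1620 CPM). The genes of C-fibre low-threshold mechanoreceptors (C-LTMR), led by Piezo2 and Fam19a4, summed to 674 CPM (517 to 847 CPM). The low end of each of these sensory class ranges was male A. Without male A, female C was the lowest library for the large myelinated neuron genes and the C-LTMR genes. The sums of fibroblast and of endothelial genes were lowest in female C, that of the endothelial ones, led by Pecam1 and Cdh5, at 5.46 CPM against 8.85 to 38.7 CPM. Macrophage genes, led by C1qb and Lyz2, summed to 0.913 to 3.92 CPM over the 6 libraries and erythroid genes, led by Hbb-bs and Hba-a1, to 6.90 to 40.6 CPM. No gene of these lists was at 0 in all libraries. Of the tested genes, 5 of 5 fibroblast, 6 of 6 endothelial, 2 of 2 macrophage and 6 of 7 glial genes had lower values in females, as did 50.5% of all 14958 tested genes, and 0 of these list genes were called. By mean CPM without male A, a comparison added after the data were seen, this held for 3 of 5 fibroblast, 6 of 6 endothelial, 2 of 2 macrophage and 4 of 7 glial genes, and for 47.0% of all tested genes. Among pan-sensory genes 5 of 6 and among erythroid genes 3 of 3 had higher values in females, with male A and without it, and 0 were called. Their part in the levels of Hcn2, Hcn3 and Hcn4 was not tested.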

How the data were processed

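RNA of 6 pools of sorted cells was reverse transcribed and amplified as full-length cDNA with a SMARTer ultra low input kit, per the labels' protocols. The submitters' processing notes name Subread, with no version, and featureCounts 1.4.5 on GRCm38.p2. The authors deposited raw counts per Ensembl gene for each library, with the counted exon length. The deposited CPM and RPKM values equal counts over the library total and CPM over length, within 1e-06, and served as a check only. Symbols were given to 40254 of 41388 identifiers.

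Levels are CPM with TMM factors of edgeR 4.0.16 in R 4.3.3, and RPKM is that CPM per kilobase. Female and male libraries were compared with edgeR's quasi-likelihood F-test after filterByExpr (minimum count 10), with standard errors taken from the F statistic. Alternatives used DESeq2 1.42.0 and limma 3.58.1. Exact permutation tests and intervals at 95% were computed with Python 3.11.15 and scipy 1.17.1, and sequences were compared with blastn 2.17.0 and Biopython 1.88. The fit was tested on simulated data. Two-sided tests were used. P-values of the sex tests measure the spread between libraries, of which female B and female C are single embryos and the others pools. Those of the order of the members come from sign changes of gene differences within the libraries. The shared letters A and C come from the labels, which name no shared litter or day, so the fit has no pairing.

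Members, lists, tests and the rule for named genes were chosen with earlier results of these data known. By the rule, the text names each member, the 3 genes most like a member with at least 1 CPM, called pathway genes (none), the 2 highest of each pathway list by RPKM and the 2 highest of each marker list by CPM. Pex5l, Kcne2, Rapgef3, Isl1, Avil, Pou4f1 and Prph were named in addition, after their values were seen.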

Additional observations from a re-analysis of the deposited data

Results flagged for a closer look

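Hcn3 in female C, at 34.7 CPM, lay far from the other 5 libraries: its gap to the next, 20.5 CPM, was 0.710 of the whole range, where 0.625 is the 95% critical value of Dixon's test for 6 libraries. The 6 libraries of both sexes were taken as 1 group here, since groups of 3 are not tested. Chance flags about 1 in 20 groups, and 12 ends were checked over the levels and shares of Hcn2, Hcn3 and Hcn4, of which this was the only one past the value. Of the 14958 tested genes, 67 (0.448%) passed the same critical value on the high side in female C, against 1325 (8.86%) in male A. The other libraries had 30 (male C), 63 (male D), 31 (female A) and 123 (female B). Female C was taken up because Hcn3 was highest there, so its count alone understates how often a gene is flagged in some library. By fold, 346 genes (2.31%) stood in female C at least 1.91 times above the mean of the other 5 libraries, as Hcn3 did, against 1432 (9.57%) in male A. Female C held the ganglia of 1 embryo, as did female B, in which Hcn3 was at 20.5 CPM.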

How the results depend on the processing

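Neither Hcn3 nor Hcn4 passed the threshold between the sexes under any setting run, with adjusted p of 0.708 to 1.00 for Hcn3 and 0.803 to 1.00 for Hcn4. Hcn3 was higher in females in all 16 alternatives, with log2 changes of 0.02 to 0.48 over settings and 0.13 to 0.66 when a library was left out. Hcn4 was higher in 14 of 15, with -0.0053 without male C and at most 0.46; a filter of 1 CPM in 3 libraries removed it. The Hcn2 ratio of means (-0.21 in log2) ran from -0.44 to 0.14 over left-out libraries, changing direction without female C (0.05) and without male C (0.14), and filtered settings gave Hcn2 no value. The count of genes called, 4 in the reported fit, was 14 without a low-count filter, 13 with DESeq2, 1 with limma voom, 77 with the replicate block, 0 with record set as a term, 0 in record set 1 only and 0 to 5 when a library was left out; 661 genes had an unadjusted p under 0.05. Why the count differed between these fits was not tested. The shared letters A and C give 2 pairs, too few for a check of pairing, and with the replicate block the log2 change was 0.40 for Hcn3 and 0.41 for Hcn4, neither called. The mean share of Hcn4 was 2.91% with the longest transcript length, which for Hcn4 is longer by construction, and 4.27% to 5.19% over left-out libraries; that of Hcn3 stayed between 92.9% and 95.4% under all settings. The Hcn2 share difference ran from -0.86 (without female A) to -0.06 percentage points (without female C). With the longest transcript length the log2 difference of Hcn4 over Hcn2 was 0.77 (exact p = 0.0625). With 5 libraries the paired test cannot go below 0.0625, which all left-out fits gave. The log2 difference then ran from 4.17 to 4.47 for Hcn3 over Hcn4, 1.29 to 1.68 for Hcn4 over Hcn2 and 5.46 to 5.87 for Hcn3 over Hcn2. Depth limits Hcn2 and Hcn4, with 37 and 114 counts in all, and not Hcn3, with 2737.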
